A study of Homo sapiens with 4 samples.

Results

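The thioredoxin system and the enzymes that supply its NADPH were followed through 9 genes: NQO1, TXN, TXNRD1, PRDX1, SRXN1, PGD, TALDO1, TKT and ME1. They were taken by gene symbol from the 58233 Ensembl gene identifiers of the count table, and all 9 had counts in every library. Messenger RNA was sequenced from MIA PaCa-2 and PANC-1 cells, both established human pancreatic cancer cell lines labelled as wild type, 24 h after treatment with cannabichromene (CBC), a non-psychotropic phytocannabinoid of hemp, or with PBS. The 4 groups were MIA PaCa-2 with PBS, MIA PaCa-2 with CBC at 35 µM, PANC-1 with PBS and PANC-1 with CBC at 30 µM, with 1 library each. The doses come from the study's methods and differ between the lines, so a difference in response between the lines cannot be told apart from the dose. CBC was dissolved in acetonitrile. The labels give the controls as PBS and the study's methods call them vehicle controls, without naming the vehicle. Each line was compared with its own PBS library, and the PBS libraries of both lines were compared with each other.

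Thioredoxin (TXN) is a small protein that passes electrons to oxidised proteins, and thioredoxin reductase 1 (TXNRD1), a selenoprotein, reloads it with electrons from NADPH. Peroxiredoxin 1 (PRDX1) spends these electrons on hydrogen peroxide, and sulfiredoxin (SRXN1) rescues peroxiredoxins that have been over-oxidised. PGD makes NADPH in the oxidative branch of the pentose phosphate pathway, TALDO1 and TKT rearrange sugars in its non-oxidative branch, ME1 makes NADPH from malate in the cytosol, and NQO1 reduces quinones with NADH or NADPH. Several of these genes are textbook targets of the transcription factor NRF2, which binds antioxidant response elements (AREs) when oxidants or electrophiles reach the cell.

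The core of the ARE was looked for near the start sites because it is the letter pattern that NRF2 is known to bind. The letters TGACNNNGC, read on both strands, occurred in 13.3% of 35116 RefSeq promoter windows of 300 bases (GRCh38.p14, from 250 bases before the start). The share was 35.04% in windows from 1000 bases before to 100 bases after the start. RefSeq windows matched 8 of the 9 genes, with 2 start sites for TXNRD1. PRDX1 had none. The core was present in the 300-base windows of 3 genes (PGD, ME1 and TXNRD1) and in the longer windows of 6, with NQO1, TALDO1 and TXN added. Neither window of SRXN1 or TKT held it. The longer form TGACTCAGC, which contains an AP-1 pattern (TGANTCA), lay in the longer windows of 3 genes, NQO1, ME1 and TALDO1, and in 1.59% of all such windows. The AP-1 pattern alone was in 24.2% of them and was present in SRXN1 also. A match is a pattern of letters and says nothing of binding in these cells.

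The sites are shown so that the letters of the core and its surroundings can be compared between the genes. For ME1, 2 further cores just after the start are not printed. Nor is the 1 core of the second TXNRD1 start site, which lies in an annotated exon of TXNRD1. Each is printed 5′ to 3′ on the strand of the gene, with the pattern in capitals (the ARE core, or for SRXN1 the AP-1 pattern). A core that lies on the other strand appears as its reverse complement, as in PGD, TXN and the TXNRD1 site over the start. The SRXN1 site also lies in an intron of another annotated protein-coding gene on the same strand.
NQO1, chr16:69726991-69727031, minus strand, in an exon of the divergent transcript NQO1-DT: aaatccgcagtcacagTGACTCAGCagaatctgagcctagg
ME1, chr6:83431164-83431204, minus strand, upstream of the gene: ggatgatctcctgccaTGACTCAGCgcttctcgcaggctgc
TALDO1, chr11:746495-746535, plus strand, upstream of the gene: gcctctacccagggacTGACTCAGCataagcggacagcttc
TXNRD1 first start site, chr12:104215664-104215704, plus strand, upstream of the gene: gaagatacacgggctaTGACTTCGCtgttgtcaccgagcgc
TXNRD1 first start site, chr12:104215755-104215795, plus strand, over the start: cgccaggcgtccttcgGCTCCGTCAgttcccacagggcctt
PGD, chr1:10398847-10398887, plus strand, in an intron of a longer PGD transcript: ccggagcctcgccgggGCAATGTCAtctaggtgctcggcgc
TXN, chr9:110257064-110257104, minus strand, upstream of the gene: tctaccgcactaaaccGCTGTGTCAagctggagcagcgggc
SRXN1, chr20:653450-653488, minus strand, upstream of the start: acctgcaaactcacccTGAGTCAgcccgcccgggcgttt

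The libraries held 21742775 to 27903667 counts, and 3 counts, the upper limit for an observed 0, stood for 0.11 to 0.135 CPM (counts scaled to a common library size). The epithelial keratins KRT8, KRT18 and KRT19 were expressed in both lines, beside the mesenchymal markers VIM and ZEB1. ZEB1 had 43.1 and 64.4 CPM with PBS and CBC in MIA PaCa-2 and 74.4 and 101 CPM in PANC-1. The epithelial marker EPCAM had at most 1 count in MIA PaCa-2 against 264 and 250 in PANC-1. CDH1 was at 0 in both MIA PaCa-2 libraries. PTPRC, PECAM1, DCN, CPA1, AMY2A, INS and GCG were at 0 in all 4 libraries, and CD68, VWF, FN1 and PRSS1 stayed under 1 CPM, while COL1A1 reached 133.6 CPM with PBS and 46.4 CPM with CBC in PANC-1. The summed level of the 6 epithelial markers was lower with CBC in both lines (3476 to 2553 CPM in MIA PaCa-2, 2045 to 1206 CPM in PANC-1), a sum made almost wholly of KRT8, KRT18 and KRT19. KRT7 (2 to 52 counts in MIA PaCa-2) and CDH1 (32 to 131 counts in PANC-1) were higher with CBC. Transcripts of the mitochondrial genome also took a smaller share of the counts, 3.86% against 5.81% in MIA PaCa-2 and 2.42% against 4.63% in PANC-1. Their part in the results was not tested. In such bulk samples, fewer cells of a kind and less RNA per cell cannot be told apart.

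Thioredoxin reductase rose in both lines. TXNRD1 (GRCh38, chr12:104215779-104350307, plus strand) had 493 CPM with PBS and 1069 CPM with CBC in MIA PaCa-2, and 608 CPM with PBS and 1310.4 CPM with CBC in PANC-1. Both CBC libraries lay above both PBS libraries. The rise was 2.17-fold in MIA PaCa-2 and 2.15-fold in PANC-1, log2 fold changes of 1.12 (95% counting interval 1.08 to 1.15) and 1.11 (1.08 to 1.14). The difference between the lines in this log2 fold change was -0.01, with an interval of -0.05 to 0.03. The intervals of single log2 values are exact binomial (Clopper-Pearson) intervals of the count ratio. The interval of a difference between 2 log2 fold changes is a normal approximation from the counts. Both kinds cover counting error only, since no condition had a second library. Over both lines, with the cell line as a block, edgeR's quasi-likelihood test gave a log2 fold change of 1.12 (standard error 0.17) with a Benjamini-Hochberg adjusted p of 0.014. TXNRD1 was the only gene of the 9 called by this test at an adjusted p under 0.05, against 2.37% of all 16380 genes called as higher.

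Sulfiredoxin had the largest fold of the group in PANC-1, at the lowest counted level. SRXN1 (chr20:646615-653200, minus strand) had 90 and 194 counts in the MIA PaCa-2 libraries with PBS and CBC, or 4.05 and 7.84 CPM. In PANC-1 it had 77 and 376 counts, or 3.39 and 13.8 CPM. Both CBC libraries were again above both PBS libraries. The log2 fold changes were 0.94 (0.59 to 1.33) in MIA PaCa-2 and 1.997 (1.67 to 2.40) in PANC-1, and they differed by 1.06 (counting interval 0.55 to 1.56). The edgeR quasi-likelihood test over both lines gave an adjusted p of 0.0872, which misses the threshold. SRXN1 shares 2292 of its 2528 exonic bases with another annotated gene on the same strand, which had 0 counts in every library, and how reads over shared exons were counted is not given in the sources used here, so the level of SRXN1 is uncertain. Without a filter on low counts the edgeR quasi-likelihood test, then fitted to 28834 genes, gave an adjusted p of 0.00527.

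The electron carrier and the peroxidase had smaller values. TXN (chr9:110243810-110256507, minus strand), the substrate of the reductase, had 201 and 253 CPM with PBS and CBC in MIA PaCa-2 and 167 and 202 CPM in PANC-1, log2 fold changes of 0.33 and 0.28. The higher PBS library, of MIA PaCa-2, and the lower CBC library, of PANC-1, lay within 1 CPM of each other. PRDX1 (chr1:45510914-45542732, minus strand) was the one thioredoxin-system gene of the 9 that was lower with CBC in both lines. It had 709.8 and 505 CPM in MIA PaCa-2 and 517 and 461 CPM in PANC-1, log2 fold changes of -0.49 (-0.53 to -0.46) and -0.17 (-0.20 to -0.13). The edgeR quasi-likelihood adjusted p was 0.391 for TXN and 0.345 for PRDX1. PRDX1 shares 501 bases of exon with MMACHC on the opposite strand, which had 298 to 613 counts against 11755 to 15784 for PRDX1. How the counting treated strand is not given in the sources used here.

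**Figure D1:**
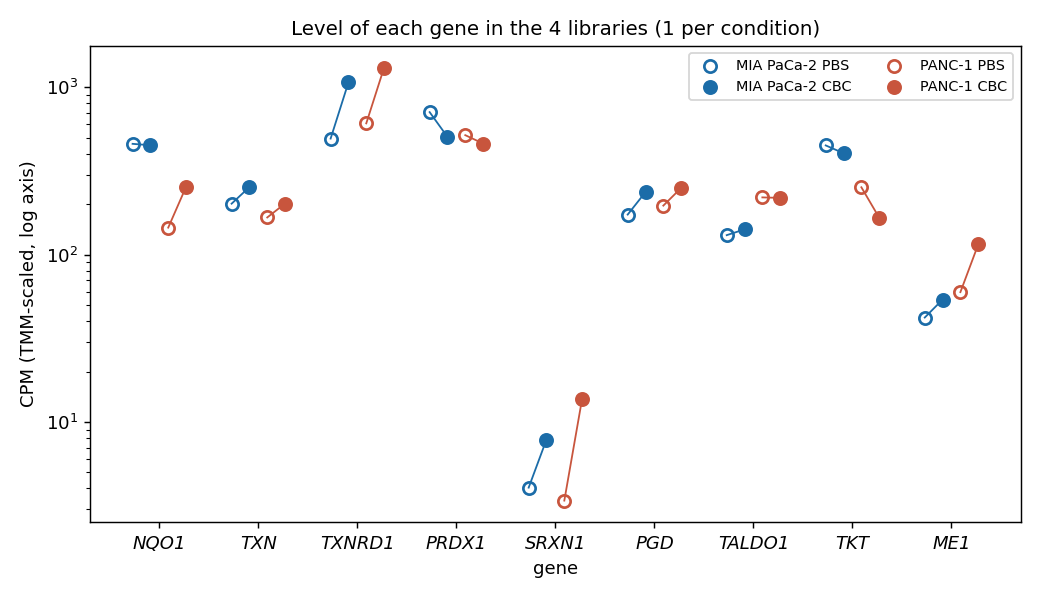
Level of each of the 9 genes in the 4 libraries, in CPM on TMM-scaled library sizes and on a log axis, with open circles for PBS, filled circles for CBC and a line joining the libraries of each cell line. TXNRD1 reached 1069 and 1310.4 CPM with CBC, while SRXN1 stayed at 3.39 to 13.8 CPM and NQO1 moved in PANC-1 but not beyond counting error in MIA PaCa-2.

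Of the 4 NADPH-supply genes among the 9, ME1 had the largest fold in PANC-1. ME1 (chr6:83210402-83431051, minus strand) had 42.0 and 53.8 CPM with PBS and CBC in MIA PaCa-2 and 59.6 and 114.9 CPM in PANC-1. The CBC library of MIA PaCa-2 lay below the PBS library of PANC-1. The log2 fold changes were 0.36 (0.23 to 0.48) and 0.94 (0.85 to 1.04), differing by 0.59 (0.44 to 0.74). The adjusted p over both lines was 0.157 in the edgeR quasi-likelihood test.

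PGD (chr1:10398592-10420511, plus strand), which releases NADPH and carbon dioxide from 6-phosphogluconate, had like values in both lines. It had 173 and 236 CPM in MIA PaCa-2 and 196 and 250.2 CPM in PANC-1, with both CBC libraries above both PBS libraries. The log2 fold changes were 0.45 (0.39 to 0.51) and 0.35 (0.30 to 0.41), and the edgeR quasi-likelihood adjusted p was 0.266. In the non-oxidative branch, TALDO1 (chr11:747415-765012, plus strand) had 130.6 and 141 CPM in MIA PaCa-2 and 219.6 and 218 CPM in PANC-1, log2 fold changes of 0.11 and -0.01. The order of its libraries followed the cell line, not the treatment. TKT (chr3:53224712-53256052, minus strand) had the opposite sign from PGD, with 449 and 403 CPM in MIA PaCa-2 and 252 and 166 CPM in PANC-1. Its log2 fold changes were -0.15 (-0.19 to -0.11) and -0.60 (-0.66 to -0.55), with edgeR quasi-likelihood adjusted p-values of 0.333 for TKT and 0.902 for TALDO1.

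NQO1 (chr16:69706996-69726668, minus strand) had unlike values in the 2 lines. MIA PaCa-2 held 459 CPM with PBS and 449.9 CPM with CBC, a log2 fold change of -0.03 (-0.07 to 0.01). PANC-1 held 145 CPM with PBS and 254 CPM with CBC, a log2 fold change of 0.81 (0.75 to 0.87), and so stayed below both MIA PaCa-2 libraries. The log2 fold changes differed by 0.84 (0.77 to 0.91), and no test of this difference beyond counting error was possible with 1 library per condition. Over both lines the edgeR quasi-likelihood adjusted p was 0.367. An antisense RNA over NQO1 had at most 20 counts in any library.

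**Figure D2:**
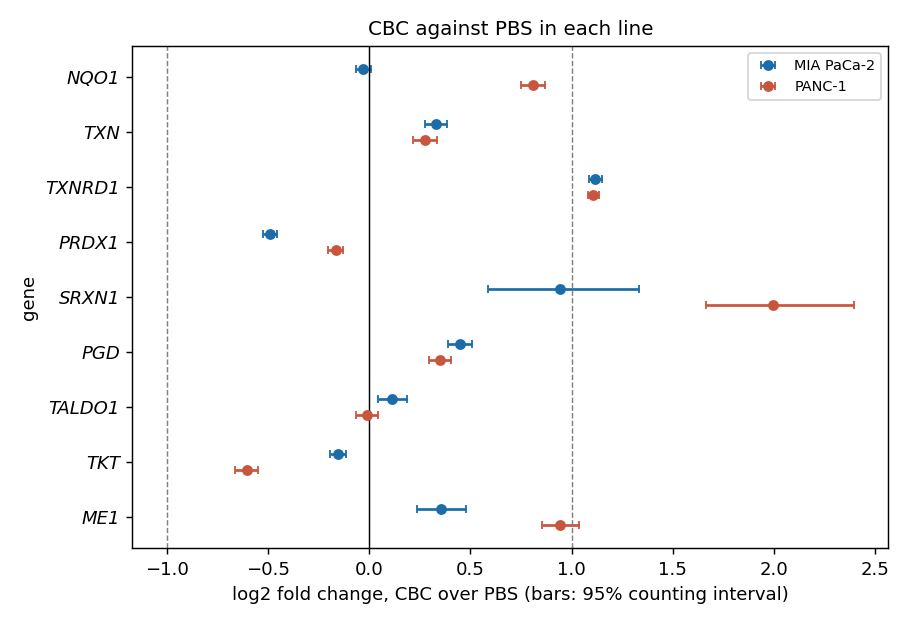
Log2 fold change of CBC over PBS for each gene in MIA PaCa-2 and PANC-1, with 95% counting intervals as bars and dashed lines at a log2 value of 1 in either direction. TXNRD1 passed 1 in both lines, at 1.12 and 1.11, and SRXN1 passed it in PANC-1, at 1.997.

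Counted over the 9 genes, 1 passed a log2 fold change of 1 upwards in MIA PaCa-2 (TXNRD1) and 2 did in PANC-1 (TXNRD1 and SRXN1). Among all genes with at least 1 CPM in 1 library of the pair, 11.5% and 7.71% did. TXNRD1 alone passed in both lines, as 3.33% of genes did. None of the 9 passed a log2 fold change of 1 downwards, against 8.97% of all genes in MIA PaCa-2 and 7.03% in PANC-1. The counting interval lay above 0 in both lines for 5 of the 9 (TXN, TXNRD1, SRXN1, PGD and ME1), against 23.2% of all genes. Such intervals narrow as counts grow, and the genes behind the 23.2% were not matched to the 9 by level. These shares are therefore not directly comparable. The fold changes of the lines differed by over 0.5 on the log2 scale for 3 of the 9 (NQO1, SRXN1 and ME1), a share near the 38.1% of all genes. The limits of 0.5 and of an interval above 0 were chosen after the values were seen. The median log2 fold change of the 9 was 0.33 in MIA PaCa-2 and 0.35 in PANC-1, beside -0.01 and 0.02 over all genes tested.

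The summed levels show where the transcripts went. TXN, TXNRD1, PRDX1 and SRXN1 together had 1409 CPM with PBS and 1835 CPM with CBC in MIA PaCa-2, and 1295 and 1987 CPM in PANC-1, and TXNRD1 was the largest part of each CBC sum. PGD, TALDO1, TKT and ME1 together had 795 and 835 CPM in MIA PaCa-2 and 728 and 749 CPM in PANC-1, since the lower TKT stood against the higher PGD and ME1. Levels were also compared per kilobase of exon, with all annotated exons of a gene joined, 9502 bases for TKT and 6710 for TXNRD1. A single transcript can be shorter, so the order between genes depends on this choice of length. With these lengths the order of levels had fixed ends. PRDX1 was first, at 274 to 422 CPM per kilobase, and TXN second, at 165 to 251 CPM per kilobase, in all 4 libraries, and SRXN1 was last, at 1.34 to 5.44 CPM per kilobase. TXNRD1 moved from 73.5 to 159 CPM per kilobase in MIA PaCa-2 and from 90.7 to 195 in PANC-1, where TXN had 199.9 with CBC.

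At baseline the lines differed most in NQO1, which had 0.316 times the MIA PaCa-2 level in PANC-1 (log2 difference -1.66, counting interval -1.72 to -1.61). It was the only one of the 9 past a log2 difference of 1 in the PBS libraries, against 41.9% of all genes, so the share was below that of genes at large. TKT was lower in PANC-1 by a log2 difference of -0.83 (-0.88 to -0.78), PRDX1 by -0.46 and TXN by -0.27. TALDO1 was higher in PANC-1 by 0.75 (0.68 to 0.82), ME1 by 0.50, TXNRD1 by 0.30 and PGD by 0.18. On plain library totals TXNRD1 was at 0.17 and PGD at 0.05. The interval of SRXN1, -0.72 to 0.20, spanned 0. The median of the 9 was -0.25, beside 0.10 over all genes.

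**Figure D3:**
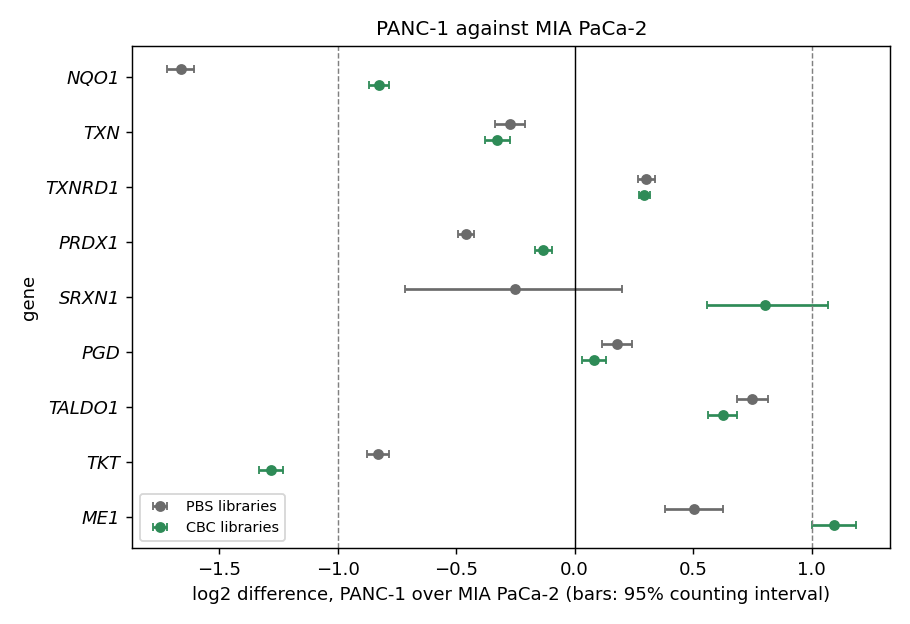
Log2 difference of PANC-1 over MIA PaCa-2 for each gene in the PBS libraries and in the CBC libraries, with 95% counting intervals as bars and dashed lines at a log2 value of 1 in either direction. NQO1 moved from -1.66 with PBS to -0.83 with CBC, TKT from -0.83 to -1.28 and ME1 from 0.50 to 1.09.

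With CBC the lines stood farther apart for some of the genes and closer for others. TKT and ME1 were the 2 genes past a log2 difference of 1 in the CBC libraries, at -1.28 and 1.09, against 45.5% of all genes. SRXN1 was 0.80 higher in PANC-1 (0.56 to 1.07). The TXNRD1 difference, 0.29, was close to its baseline value. These values use the same libraries as the comparisons within each line and are not independent of them. In the edgeR quasi-likelihood test of the lines over both treatments, 4 of the 9 passed an adjusted p of 0.05, close to the 47.0% of all genes that did. Each line had only its PBS and its CBC library in this test. The treatments thus stood in for replicates, and the differences with PBS and with CBC were averaged. NQO1 (log2 difference -1.31, adjusted p = 0.00272) and TKT (-1.12, adjusted p = 0.00291) were lower in PANC-1, and TALDO1 (0.62, adjusted p = 0.0297) and ME1 (0.74, adjusted p = 0.0327) were higher. For ME1 the adjusted p on plain library totals was 0.0514.

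The remaining genes of the same pathways were counted from lists written from general knowledge, but with earlier results of these data known. The counts of these lists are therefore descriptions and not independent evidence. Of 19 other thioredoxin, peroxiredoxin and glutaredoxin genes, 1 rose and 2 fell in the edgeR quasi-likelihood test over both lines, beside 2.37% higher and 2.6% lower over all genes, and their median log2 fold change was -0.40 in MIA PaCa-2 and -0.21 in PANC-1. The one that rose was TXNIP, which binds and inhibits thioredoxin. In MIA PaCa-2 it went from 63.7 to 326 CPM, and from 0.22 to 4.21 CPM, 5 to 115 counts, in PANC-1 (adjusted p = 0.0102). PRDX3, the mitochondrial peroxiredoxin, went from 151 to 57.5 CPM and from 244 to 155 CPM (adjusted p = 0.0486). PRDX2 went from 179 to 94.4 CPM and from 14.3 to 7.21 CPM (adjusted p = 0.0473). Past a log2 fold change of 1 there were 1 higher and 3 lower in MIA PaCa-2, and 1 higher and 1 lower in PANC-1, against 11.5%, 8.97%, 7.71% and 7.03% of all genes. Some of these passed the filter of 1 CPM only through the library where they were high. In MIA PaCa-2 these were GLRX (1.08 CPM with PBS, 0.08 CPM with CBC) and MSRB3 (1.26 and 0.49 CPM). In PANC-1 it was TXNIP, through its level with CBC.

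Of 19 other genes of NADPH supply, 17 were tested over both lines, of which 3 rose and 1 fell, beside 2.37% and 2.6% of all genes. IDH1, the cytosolic NADP-dependent isocitrate dehydrogenase, had 63.0 and 111 CPM with PBS and CBC in MIA PaCa-2 and 63.9 and 345 CPM in PANC-1 (edgeR quasi-likelihood adjusted p = 0.0412). The folate enzyme MTHFD1 fell, from 300.2 to 168.5 CPM and from 194 to 98.7 CPM (adjusted p = 0.0404). IDH2, the mitochondrial counterpart of IDH1, had 64.6 and 35.9 CPM in MIA PaCa-2 and 78.4 and 40.1 CPM in PANC-1, and missed the threshold (adjusted p = 0.0604). Past a log2 fold change of 1, 1 of 16 tested genes (ALDH1L2) was higher in MIA PaCa-2, a share below the 11.5% of all genes, and 4 of 17 were in PANC-1, against 7.71%. None was lower, against 8.97% and 7.03%. ALDH1L2 was under 1 CPM in both PBS libraries and so passed the filter of 1 CPM only through its level with CBC.

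Among 10 other quinone and carbonyl reductases 1 gene rose, beside 2.37% of all genes. It was AIFM2, which reduces ubiquinone at the plasma membrane and is known as a suppressor of ferroptosis. In MIA PaCa-2 it went from 18.7 to 83.1 CPM, and from 41.4 to 95.5 CPM in PANC-1 (edgeR quasi-likelihood adjusted p = 0.0202). POR, the electron donor of microsomal P450 enzymes, had 135 and 215.5 CPM and 72.7 and 129 CPM (adjusted p = 0.0736). CRYZ, a quinone reductase, had 54.0 and 25.8 CPM and 61.3 and 51.9 CPM (adjusted p = 0.214). The median was -0.36 in MIA PaCa-2 and 0.26 in PANC-1. Past a log2 fold change of 1, 1 of the 10 was higher and 2 were lower in MIA PaCa-2 (11.5% and 8.97% of all genes), and 2 were higher in PANC-1 (7.71%). The 1 higher is near the share of all genes.

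Because TXNRD1 contains selenocysteine, the 7 genes that make this residue and insert it were counted, and 2 rose, beside 2.37% of all genes. SEPHS2, which makes the selenium donor, had 72.8 CPM with PBS and 295 CPM with CBC in MIA PaCa-2, and went from 91.0 to 278 CPM in PANC-1 (edgeR quasi-likelihood adjusted p = 0.00743). SARS1, the seryl-tRNA synthetase, which serves protein synthesis at large too, went from 152 to 295 CPM and from 159 to 298 CPM (adjusted p = 0.0328). SEPSECS, which completes the residue on its tRNA, had 8.77 and 11.7 CPM and 16.5 and 22.2 CPM (adjusted p = 0.454). The medians were 0.48 and 0.42. Past a log2 fold change of 1, 2 genes were higher in MIA PaCa-2 (11.5% of all genes) and 1 in PANC-1 (7.71%).

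Of 20 other NRF2 target genes, 17 were tested over both lines and 7 rose, against 2.37% of all genes. HMOX1, which breaks down haem, had 10.6 CPM with PBS and 403 CPM with CBC in MIA PaCa-2, and went from 38.8 to 1022 CPM in PANC-1 (edgeR quasi-likelihood adjusted p = 0.000496). SLC7A11, the cystine importer, went from 20.1 to 69.4 CPM and from 69.1 to 425 CPM (adjusted p = 0.00714). OSGIN1 went from 12.8 to 64.4 CPM and from 6.99 to 59.6 CPM (adjusted p = 0.00519). The median log2 fold change was 0.91 in MIA PaCa-2 and 0.73 in PANC-1, above the medians of 0.33 and 0.35 for the 9 genes. Past a log2 fold change of 1, 7 of 17 tested genes were higher in MIA PaCa-2 and 7 of 15 in PANC-1, against 11.5% and 7.71% of all genes. None was lower by this limit, against 8.97% and 7.03%. Smaller falls did occur. The counting interval lay below 0 for 2 tested genes in each line, and above 0 for 13 in MIA PaCa-2 and 11 in PANC-1. The study named HMOX1 from these libraries and then selected HMOX1, SLC7A11 and FTH1, among other genes, for qRT-PCR. Their place in the list is therefore not independent evidence of its direction. The study reported all of them as increased by qRT-PCR, and HMOX1 protein as increased by western blot. Those measurements are separate from the libraries used here.

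**Figure D4:**
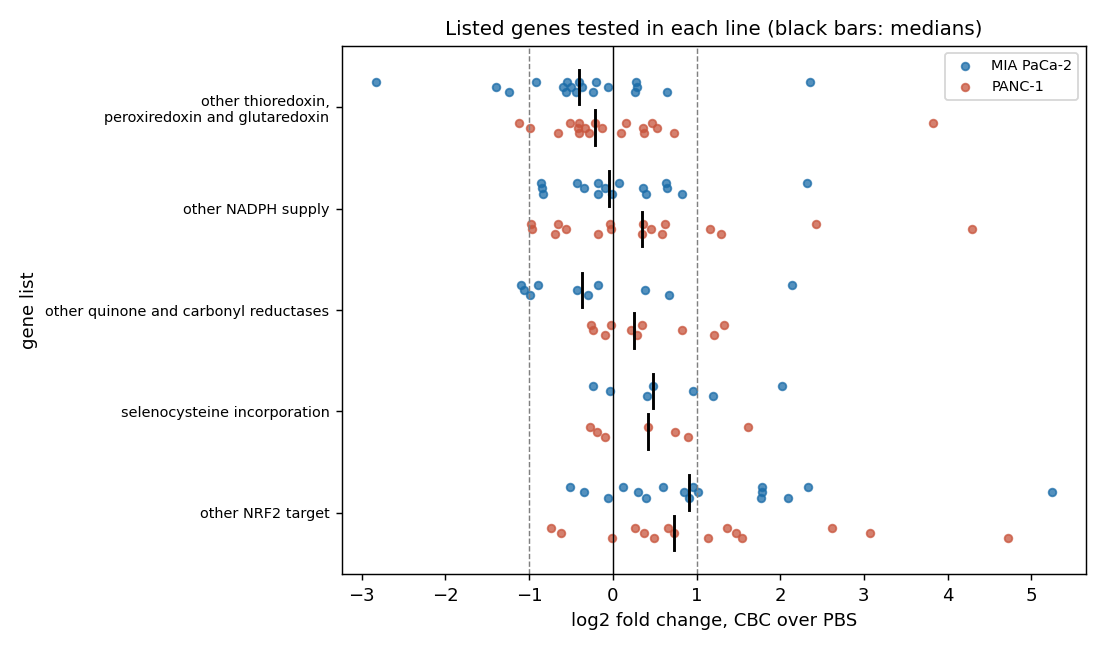
Log2 fold change of CBC over PBS for every tested gene of the 5 pathway lists in MIA PaCa-2 and PANC-1, 1 point per gene, with the list's median as a black bar and dashed lines at a log2 value of 1 in either direction. The other NRF2 targets have medians of 0.91 and 0.73, while the other thioredoxin, peroxiredoxin and glutaredoxin genes have medians of -0.40 and -0.21.

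The genes whose pattern lay closest to TXNRD1 were MTMR14, WASHC2A and GNPDA1, at distances of 0.06, 0.09 and 0.10. The distance was Euclidean over 3 log2 values, the fold changes of both lines and the baseline difference, taken over genes whose 4 libraries averaged 10 CPM or more. MTMR14 had log2 fold changes of 1.06 and 1.10, WASHC2A of 1.11 and 1.08, and GNPDA1 of 1.02 and 1.13. Those closest to SRXN1 were farther away, RHOQ at 0.32, RBCK1 at 0.38 and SERINC2 at 0.41.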

How the data were processed

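Poly(A) RNA of 4 libraries was sequenced. Cutadapt 2.7 (trimming), STAR (alignment to GRCh38) and HTSeq (counts per gene, Ensembl release 89) were run by the authors (aligner version and strand setting: not given in the sources used here). They deposited these raw counts, which were used here, and a CPM signal per library on TMM-scaled sizes. The deposited signal matched the CPM computed here within a relative difference of 6.84e-09.

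Of 58233 identifiers, 57392 had a symbol. For log2 fold changes edgeR 4.0.16 (R 4.3.3) was used with TMM scaling of all 4 libraries together and a prior count of 2. Genes that reached 1 CPM in 1 or both of the libraries compared were counted past a log2 value of 1. Intervals are 95% (scipy 1.17.1). Positions and exon lengths came from GENCODE 44. edgeR's quasi-likelihood test with Benjamini-Hochberg adjustment, on 16380 genes, had line and treatment as terms and 1 residual degree of freedom. Standard errors were the log2 fold change over the root of its F. The lines pair the libraries, and deviations from the treatment means correlated at 0.91 across genes. Within a line no test was possible. P-values rest on an error that the test moderates across all genes, not on the spread of each gene alone. They cover no spread between repeat cultures, since none were measured. The quasi-likelihood test was tried on simulated counts in which each changed gene had the same fold in both lines.

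The 9 genes and the lists were chosen with earlier results of these data known. Named were all 9, and from each list the 3 genes with the largest absolute mean log2 fold change at a mean of at least 10 CPM. For the 2 of the 9 genes with the largest mean log2 fold change, the 3 closest other genes were also named. Alternatives were other scalings, DESeq2 1.42.0, prior count 0.5, the deposited values with a pseudocount of 1, other filters, other thresholds and no block.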

Additional observations from a re-analysis of the deposited data

How the results depend on the processing

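With 1 library per condition, the lines were the only replication of the treatment, and leaving one out leaves no spread to test, so only the values of the other line remain. No called value reversed. Other scalings, DESeq2 and the bias-adjusted method of edgeR (added after seeing the data) kept TXNRD1 as the 1 gene called for CBC. With no filter on low counts 2 of the 9 were called (TXNRD1 and SRXN1), and 2063 genes in all, against 815. DESeq2 called 1371. With no replicate block, so that the pairing by cell line was ignored, 0 of the 9 and 0 of 16380 genes were called by edgeR's quasi-likelihood test, and 351 had an unadjusted p under 0.05 (TXNRD1: 0.0261). Without the treatment as a term, with no replicate block, 1 of the 9 (NQO1) was called between the lines in place of 4, and 4286 genes in place of 7695. On library totals, the count past a log2 value of 1 for MIA PaCa-2 was 2 of the 9 in place of 1 and for PANC-1 it was 3 in place of 2, with ME1 at 1.01, the higher counts in MIA PaCa-2 were 3 in place of 2 for the selenocysteine genes and 8 in place of 7 for the other NRF2 targets, and the median of all genes at baseline shifted by -0.13, so that baseline values are best read relative to it. NQO1 in MIA PaCa-2 (0.04) and TALDO1 in PANC-1 (0.06) then changed sign, neither past a threshold. With at least 5 CPM, the other thioredoxin genes had 1 lower in MIA PaCa-2 and 0 higher in PANC-1, and in MIA PaCa-2 the other NADPH supply genes had 0 higher and the selenocysteine genes 1 higher. With no filter, the other NADPH supply genes had 2 higher and 1 lower in MIA PaCa-2 and the other NRF2 targets 1 lower there and 9 higher in PANC-1 in place of 7. For these list counts, fewer or more genes tested is what the filters change. In edgeR's quasi-likelihood test the filter also changed the values of single genes. The unadjusted p of TXNRD1 was 0.000138 with it and 1.465e-10 without it.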

Other observations

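Several of the listed enzymes exist as a cytosolic and a mitochondrial form, and the pairs below were chosen after their values were seen. TXNRD1 in the cytosol had values of 1.12 and 1.11 (log2 fold change, MIA PaCa-2 first and PANC-1 second throughout), and mitochondrial TXNRD2 had -0.37 and -0.42. Cytosolic TXN had 0.33 and 0.28, and mitochondrial TXN2 had -0.55 and -0.40. For isocitrate dehydrogenase, cytosolic IDH1 had 0.82 and 2.43, and mitochondrial IDH2 had -0.85 and -0.97. Cytosolic PRDX1 had -0.49 and -0.17 beside -1.40 and -0.66 for mitochondrial PRDX3. The order was the other way for NAD kinase, with -0.17 and -0.04 for cytosolic NADK and 0.08 and 0.45 for mitochondrial NADK2, and for the folate enzymes, with -0.83 and -0.98 for cytosolic MTHFD1 and 0.63 and 1.16 for mitochondrial MTHFD2, which rose over both lines in edgeR's quasi-likelihood test (adjusted p = 0.0439). The order was also the other way for glutaredoxin, with -2.83 and -1.12 for cytosolic GLRX and 0.26 and 0.47 for mitochondrial GLRX2. GLRX had only 24 and 2 counts with PBS and CBC in MIA PaCa-2. Mitochondrial MTHFD2L had -0.18 and -0.03. For malic enzyme, cytosolic ME1 had 0.36 and 0.94, and mitochondrial ME2 had -0.34 and 0.35. These are not all the pairs of the lists, and the difference within a pair was not tested.

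ALDH1L2, a mitochondrial folate enzyme that makes NADPH, had the largest log2 fold change in PANC-1 of the NADPH supply list and was also singled out after its values were seen. In MIA PaCa-2 it went from 0.72 to 3.92 CPM, and from 0.66 to 14.5 CPM in PANC-1. It was under 1 CPM in both PBS libraries and so passed the filter of 1 CPM only through its level with CBC.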
